A study of Homo sapiens with 6 samples.

Results

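The genes described here encode the histone methyltransferase KMT2A and the proteins that hold it on chromatin or are joined to it in leukaemia. The 9 members, KMT2A, MEN1, PSIP1, DOT1L, MLLT1, MLLT3, MLLT10, AFF1 and AFF4, were chosen by name from knowledge of the complex and not by their measured values. They are 9 of 34905 genes with a matched transcript, and all 9 were among the 14497 genes with enough counts to test. Polyadenylated RNA was sequenced in 6 libraries of THP1, a human monocytic line from acute myeloid leukaemia that carries a fusion of KMT2A to MLLT3. The groups, with n = 2 libraries each, were a hairpin against ALKBH5 with ALKBH5 restored (ALKBH5 rescue), the same knock-down without restoration (shALKBH5) and a control hairpin (shCtrl, genotype labelled wild-type). ALKBH5 is an enzyme that removes the N6-methyladenosine mark from RNA, and the design asks what changes with its loss and return. The libraries of each group carry the numbers 1 and 2 in their titles. The sources used here do not give what the numbers stand for. Since no label calls them separate cultures, a p-value here measures the spread of these particular libraries, which may be technical. All groups share the THP1 background and therefore the fusion. On GRCh38, MEN1 lies at chr11:64803510-64811294 (minus strand), DOT1L at chr19:2164149-2232578 (plus) and MLLT1 at chr19:6210379-6279948 (minus). MLLT10 lies at chr10:21524675-21743630 (plus) and AFF4 at chr5:132875379-132963634 (minus), and the other 4 genes are placed where their transcripts are described.

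KMT2A methylates lysine 4 of histone H3. Menin, the product of MEN1, and LEDGF, the product of PSIP1, tether it to chromatin. In KMT2A-rearranged leukaemia the N-terminal part of KMT2A, which binds menin and LEDGF, is fused to the C-terminal part of a partner such as MLLT3 (AF9), MLLT1 (ENL), MLLT10 (AF10) or AFF1 (AF4). Several partners belong to complexes that help RNA polymerase II to elongate. DOT1L, which methylates lysine 79 of histone H3, is bound by MLLT3, MLLT1 and MLLT10, while AFF1 and AFF4 are scaffolds of the super elongation complex. THP1 may thus express transcripts from intact and rearranged alleles, and reads of a fusion transcript can be assigned to KMT2A or MLLT3. No fusion transcript is listed in the tables, so the origin of such reads cannot be told apart.

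Totals ran from 14534386 to 24857373 estimated counts per library. The targeted gene did not follow the labels. ALKBH5 was at 968 CPM (counts scaled to the library size) in the library labelled ALKBH5 rescue 2, 1003 CPM in that labelled shALKBH5 2 and 1097 CPM in that labelled shCtrl 2. The libraries numbered 1 held 13.6, 12.4 and 14.6 CPM, in the same order of groups. Group names below are therefore names of labels, and comparisons by replicate number are given beside those by group. Genes with long or AT-rich transcripts were low in the library labelled ALKBH5 rescue 1. Its median log2 difference from the other libraries numbered 1 was -0.21 over 862 genes with a main transcript over 8000 bases and -0.27 over 1769 genes at or below 40% GC. All 14 markers of the monocytic line were tested, with summed levels of 4030 to 4485 CPM in libraries numbered 2 and 3661 to 3986 CPM in those numbered 1. Summed markers of T and NK, B, erythroid and megakaryocytic, or epithelial and fibroblast cells reached at most 56.6 CPM in any library, and their part in the results was not tested. Of these lists, CD3D, CD2, VPREB1, HBB, HBA1, HBA2, GP9, PF4, KRT18, KRT19 and COL3A1 were at 0 counts throughout.

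Levels were compared between genes in TPM, which corrects for length, summed over the transcripts of a gene. DOT1L was the most abundant member at 74.1 ± 5.99 TPM (SD, n = 6). MLLT1 followed at 44.1 ± 8.09 TPM, MEN1 at 37.5 ± 5.14 TPM, PSIP1 at 36.9 ± 24.3 TPM and MLLT10 at 36.0 ± 7.45 TPM, and these 4 neighbours overlapped across libraries. PSIP1 had the widest range, 11.6 to 68.9 TPM, and so also overlapped DOT1L, AFF1, KMT2A and AFF4. AFF1 was at 17.1 ± 3.35 TPM, KMT2A at 15.6 ± 3.70 TPM and AFF4 at 15.4 ± 3.74 TPM, again with overlap among the 3. MLLT3 was lowest at 5.88 ± 1.48 TPM. Every DOT1L library (67.4 to 82.9 TPM) lay above every MLLT1 library (35.2 to 52.3 TPM), and every MLLT3 library (3.90 to 7.69 TPM) lay below the lowest library of the other members, KMT2A at 8.69 TPM. With protein-coding transcripts alone the mean was 66.0 TPM for DOT1L, 10.1 TPM for KMT2A and 3.43 TPM for MLLT3, with DOT1L still highest and MLLT3 lowest. Of the MLLT3 value, 3.35 TPM belonged to the partial transcript ENST00000380321 of 708 bases and 0.074 TPM to the longest transcript, ENST00000380338. KMT2A was then below AFF4 in every library. Of the MLLT10 level over all transcripts, 11.3 TPM belonged to ENST00000471315, a noncoding transcript of 319 bases with 8 to 22 counts.

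**Figure D1:**
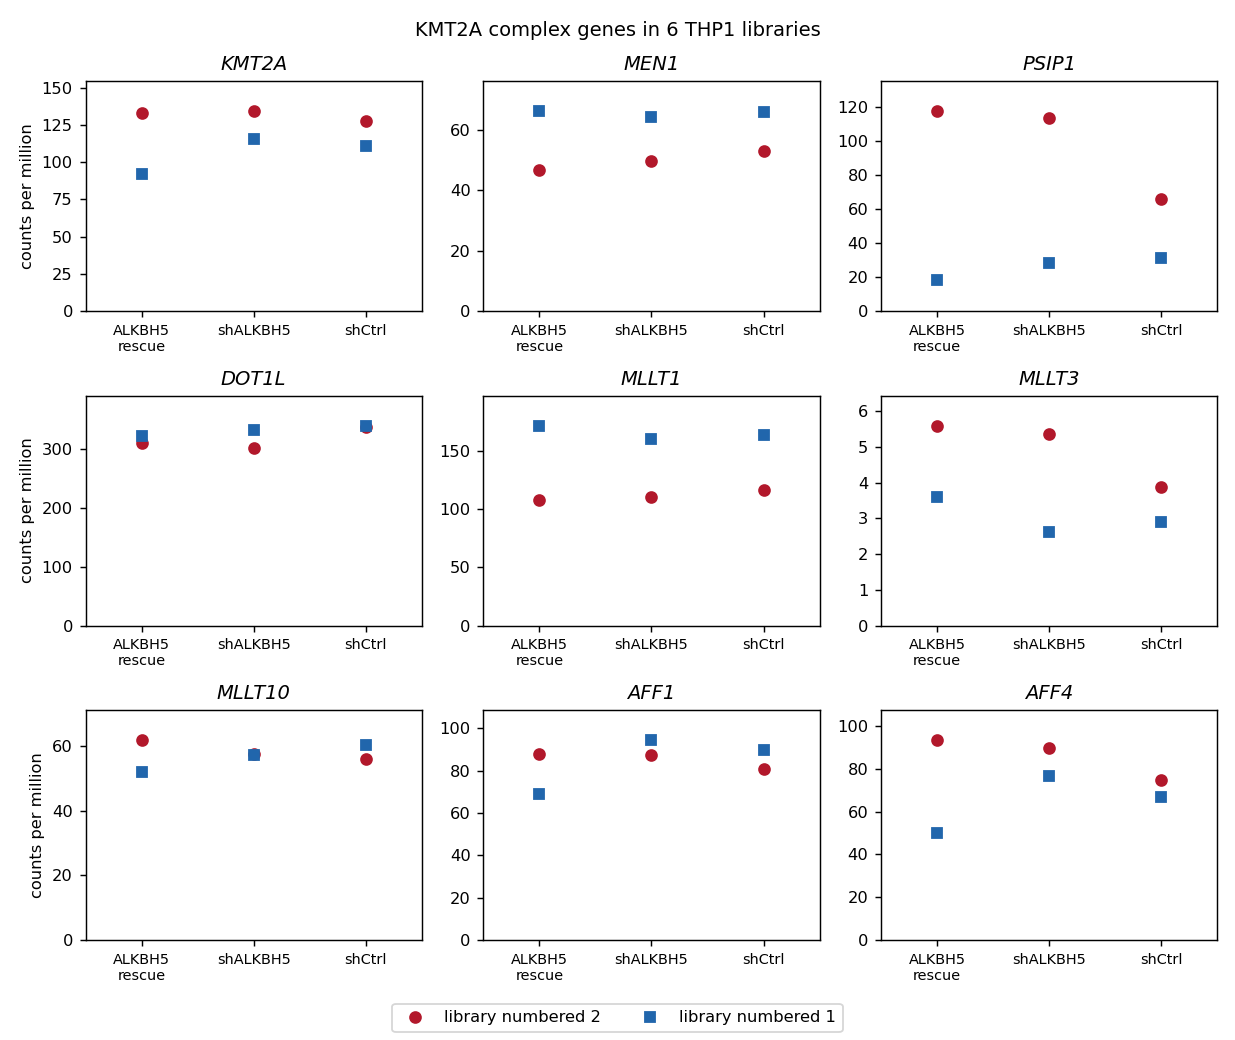
Each panel plots CPM of 1 member gene on the vertical axis, from 0, in the 3 labelled groups; circles are libraries numbered 2 and squares libraries numbered 1. PSIP1, MLLT3 and KMT2A have all circles above all squares, MEN1 and MLLT1 have all squares above all circles, and DOT1L, MLLT10 and AFF1 overlap.

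With all 6 libraries in the fit, no member passed the test along the group labels. For KMT2A and its tether genes, values along the labels were small beside the errors of the fit without replicate number, or changed direction between the numbers. Unless a block is named, errors here and in the next paragraph come from that fit. The number difference widens them. With number as a block, KMT2A was at -0.17 (SE 0.11) for ALKBH5 rescue against shALKBH5. KMT2A had 92.0 and 133 CPM in ALKBH5 rescue 1 and 2 and 115.9 and 134.4 CPM in shALKBH5 1 and 2, against 111 and 127.7 CPM in shCtrl 1 and 2. The groups overlap, and the low value is that of ALKBH5 rescue 1. The log2 fold change of KMT2A was 0.07 (SE 0.23) for shALKBH5 against shCtrl, -0.09 (SE 0.23) for ALKBH5 rescue against shCtrl and -0.15 (SE 0.23) for ALKBH5 rescue against shALKBH5. MEN1 lay between 46.6 and 66.2 CPM with log2 fold changes of -0.07 to -0.01 in the 3 comparisons. PSIP1 went opposite ways in the numbers: ALKBH5 rescue minus shCtrl was -0.76 on the log2 scale in libraries numbered 1 and 0.83 in those numbered 2, and no test of that difference was made.

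Among the members that bind or form the elongation machinery, DOT1L and AFF4 were the genes whose groups did not overlap. DOT1L had 322.4 and 309.9 CPM in ALKBH5 rescue 1 and 2 and 331.8 and 302.2 CPM in shALKBH5 1 and 2, against 340.1 and 337.9 CPM in shCtrl 1 and 2. All 4 lie below both shCtrl libraries, by a log2 fold change of -0.10 (SE 0.15) for shALKBH5 and -0.10 (SE 0.15) for ALKBH5 rescue. AFF4 had 76.4 and 89.8 CPM in shALKBH5 1 and 2, against 66.9 and 74.8 CPM in shCtrl 1 and 2, a log2 fold change of 0.23 (SE 0.31). Absence of overlap was common: it held for 17.5% of all genes between shALKBH5 and shCtrl (here DOT1L and AFF4), for 10.1% between ALKBH5 rescue and shCtrl (here DOT1L) and for 11.9% between ALKBH5 rescue and shALKBH5 (no member). The comparisons with shCtrl share its libraries. The log2 fold change of AFF1 was -0.21 (SE 0.19) and that of AFF4 was -0.21 (SE 0.31) in ALKBH5 rescue against shALKBH5. Within the libraries numbered 1 these differences were -0.45 and -0.61, and within those numbered 2 they were 0.01 and 0.06. MLLT1 and MLLT10 had errors larger than their values in all 3 comparisons. MLLT3 was at 0.43 (SE 0.45) in ALKBH5 rescue against shCtrl, or 0.44 (SE 0.24) with the replicate block, and was higher in both numbers, by 0.31 and 0.51. Its blocked value in ALKBH5 rescue against shALKBH5 was 0.23 (SE 0.23), and neither passed.

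By edgeR's quasi-likelihood test 0 of 9 members passed in each of the 3 group comparisons (adjusted p = 1 for each), against a background of 0% of 14497 genes. At an unadjusted p under 0.05 there were 38 genes for shALKBH5 against shCtrl, 43 for ALKBH5 rescue against shALKBH5 and 46 for ALKBH5 rescue against shCtrl, with 0 members among them. These counts are fewer than chance alone would give over 14497 genes. The fit without replicate number could thus hardly call a difference, and its lack of calls does not show that levels were equal. DESeq2 and limma-voom called 0 genes. With replicate number as a block, 0 members passed again, at a background of 0.0069%, 0% and 0.0069% in the same order of comparisons. In that blocked edgeR fit 347, 290 and 239 genes had an unadjusted p under 0.05, in the same order, with 0 members among them. These are also fewer than chance would give. The blocked 95% intervals bound the differences between the labels. For shALKBH5 against shCtrl they ran from -0.18 to 0.32 for KMT2A, -0.32 to 0.18 for MEN1, -0.31 to 0.12 for DOT1L and -0.28 to 0.16 for MLLT1. They were wide for PSIP1 (-0.31 to 0.94) and for MLLT3 (-0.33 to 0.74), so a difference in these was not detectable at this spread rather than absent. When a library labelled ALKBH5 rescue was also left out, calls appeared in the blocked fit. Without ALKBH5 rescue 1, PSIP1 was called at 0.40 for shALKBH5 against shCtrl (edgeR adjusted p = 0.00666, with 2.8% of all genes called) and at 0.62 for ALKBH5 rescue against shCtrl (adjusted p = 0.000102, 5.1%). Without ALKBH5 rescue 2, PSIP1 was called at 0.39 for shALKBH5 against shCtrl (edgeR adjusted p = 0.0105, 2.63%). For ALKBH5 rescue against shALKBH5 without ALKBH5 rescue 2, PSIP1 was at -0.90 (edgeR adjusted p = 2.23e-07), AFF1 at -0.47 (adjusted p = 0.00328) and AFF4 at -0.63 (adjusted p = 3.97e-05), with 6.74% of all genes called. These fits keep 1 library in that group. The PSIP1 difference of shALKBH5 from shCtrl had opposite directions in the numbers, at -0.13 within number 1 and 0.78 within number 2.

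**Figure D2:**
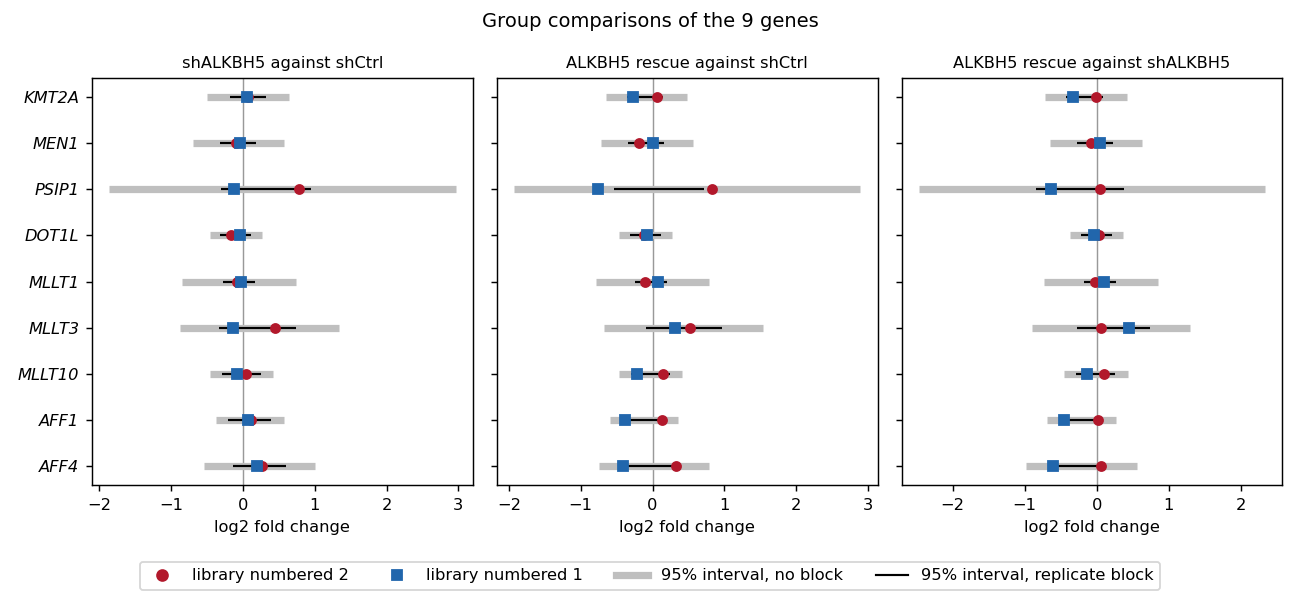
Log2 fold changes of the 9 genes (horizontal axis) in the 3 group comparisons, 1 per panel; circles and squares are differences within libraries numbered 2 and 1, wide grey bars the 95% intervals of the fit without a block and thin black bars those with replicate number as a block. Every interval contains 0, and the grey bar of PSIP1 is widest.

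The libraries did differ by replicate number, and the tether genes moved in different directions with it. PSIP1 was 1.93 higher on the log2 scale in libraries numbered 2 (SE 0.23, edgeR adjusted p = 0.000211, n = 3 against 3). It was at 117.8 CPM in ALKBH5 rescue 2, 113.9 CPM in shALKBH5 2 and 66.1 CPM in shCtrl 2, against 18.4 CPM in ALKBH5 rescue 1, 28.5 CPM in shALKBH5 1 and 31.1 CPM in shCtrl 1. The libraries numbered 2 are all above those numbered 1, and the gap was 2.67 log2 units within ALKBH5 rescue, 1.99 within shALKBH5 and 1.09 within shCtrl. KMT2A was also higher in number 2, at 132 ± 3.53 CPM against 106 ± 12.6 CPM (SD, n = 3 each), or 0.32 on the log2 scale (SE 0.09, edgeR adjusted p = 0.0189). MEN1 was lower, at 46.6, 49.5 and 53.1 CPM in ALKBH5 rescue 2, shALKBH5 2 and shCtrl 2, against 66.2, 64.3 and 65.9 CPM in ALKBH5 rescue 1, shALKBH5 1 and shCtrl 1. Its libraries did not overlap, and the log2 value was -0.40 (SE 0.09, edgeR adjusted p = 0.00612). In bulk RNA, fewer cells with a transcript and less of it per cell cannot be told apart.

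Of the genes for YEATS-domain proteins that bind DOT1L or the AFF scaffolds, MLLT1 was lower and MLLT3 higher in number 2. MLLT1 was at 108, 110 and 116 CPM in ALKBH5 rescue 2, shALKBH5 2 and shCtrl 2, against 171.5, 160 and 163 CPM in ALKBH5 rescue 1, shALKBH5 1 and shCtrl 1. The highest library numbered 2 is well below the lowest numbered 1, and its log2 value was -0.57 (SE 0.08, edgeR adjusted p = 0.000512). MLLT3, the fusion partner in THP1, was at 5.60, 5.35 and 3.88 CPM in ALKBH5 rescue 2, shALKBH5 2 and shCtrl 2, against 3.61, 2.63 and 2.89 CPM in the libraries numbered 1 of the same groups. All libraries numbered 2 are above those numbered 1, but the margin is small and the gene rests on 40 to 102 counts per library. Of these, 84.3% to 97.5% were assigned to partial transcripts without exons 1 to 5. Transcripts with any of exons 1 to 5 held 1 to 16 counts per library. The full-length transcript had too few counts to be tested, so the difference cannot be assigned to full-length MLLT3 RNA. The log2 fold change of MLLT3 as a gene was 0.70 (SE 0.19, edgeR adjusted p = 0.0145). The methyltransferase gene DOT1L (-0.07, 95% interval -0.24 to 0.11) and its cofactor MLLT10 (0.05, -0.17 to 0.27) did not pass. Of the scaffolds, AFF4 passed at 0.43 (SE 0.14, edgeR adjusted p = 0.0267), although its libraries overlap: it was at 93.4, 89.8 and 74.8 CPM in ALKBH5 rescue 2, shALKBH5 2 and shCtrl 2, against 50.1, 76.4 and 66.9 CPM in the same groups numbered 1. AFF1, at 68.9 to 94.4 CPM, had a log2 fold change of 0.03 (-0.21 to 0.27).

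Altogether 6 of the 9 members passed, 4 higher and 2 lower in number 2. The background was high: 45.4% of 14497 genes passed, 22.8% higher and 22.6% lower. Libraries of the numbers did not overlap for 57.7% of all genes, and for 5 of the members. The count of members is therefore not set apart from the rest of the transcriptome. The calls of PSIP1 and MLLT1 held without any 1 library. Without shALKBH5 1 the calls of KMT2A, MEN1 and MLLT3 were lost (edgeR adjusted p = 0.106, 0.0967 and 0.145) and without shALKBH5 2 as well (0.0822, 0.0929 and 0.142), so that 3 members passed, at 26.2% and 26.9% of all genes. AFF4 was lost without ALKBH5 rescue 1, where its log2 value was 0.21 (edgeR adjusted p = 0.0614), and without ALKBH5 rescue 2 (0.21, adjusted p = 0.0572).

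**Figure D3:**
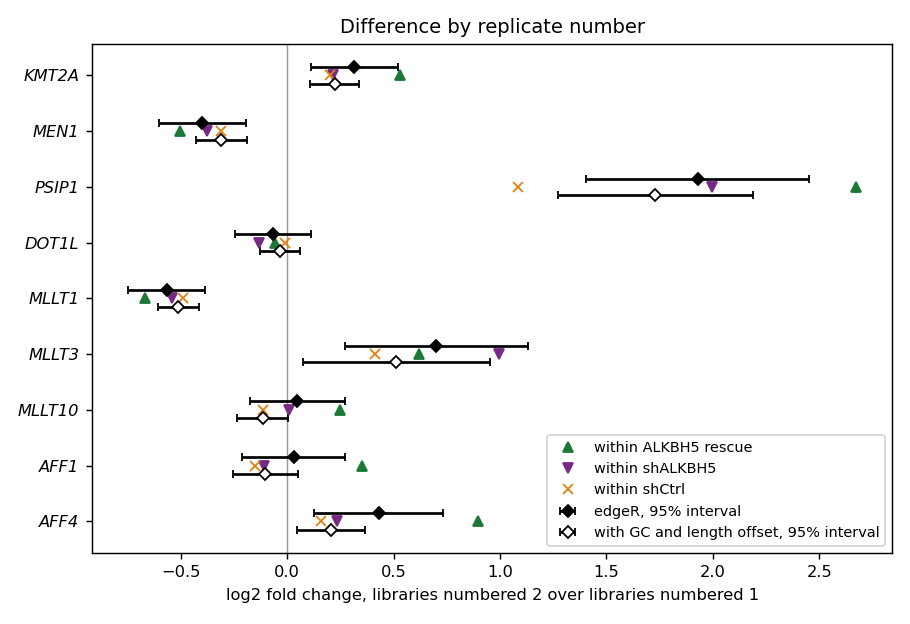
Log2 fold changes of libraries numbered 2 over those numbered 1 (horizontal axis) for the 9 genes; filled diamonds are the edgeR values and open diamonds those with an offset for GC content and length, with 95% intervals, and other symbols the difference within each group. PSIP1 is farthest right at 1.93, and MLLT1 and MEN1 are the only genes with both intervals left of 0.

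The members differ in base composition and length, and so does the number difference over all genes. The median log2 difference between the numbers was 0.22 for genes whose main transcript had at most 40% GC and -0.09 for those over 60% GC. The GC content of the main transcript was 38.6% for MLLT3, 40.4% for PSIP1, 41.1% for AFF4, 42.9% for MLLT10, 44.8% for AFF1 and 46.9% for KMT2A. It was 61.0% for MEN1, 62.7% for DOT1L and 63.4% for MLLT1, so the members lower in number 2 were GC-rich and, of those higher in number 2, MLLT3, PSIP1 and AFF4 were AT-rich. KMT2A, also higher, lay in the range of 45% to 50% GC, where the median over all genes was -0.0035. MLLT10 and AFF1 on the AT-rich side and DOT1L on the GC-rich side did not pass. The KMT2A transcript, at 16602 bases, is longer than that of 99.7% of the 13640 coding genes compared. With an offset per library for GC content and length, added after the data were seen, KMT2A was at 0.22 (edgeR adjusted p = 0.00762), MEN1 at -0.31 (adjusted p = 0.00225) and PSIP1 at 1.73 (adjusted p = 0.000465). In the same fit MLLT1 was at -0.51 (edgeR adjusted p = 0.000123) and AFF4 at 0.20 (adjusted p = 0.0396), whereas MLLT3 at 0.51 no longer passed (adjusted p = 0.053). The background in that fit was 52.9%. The library labelled ALKBH5 rescue 1 differed from the other libraries numbered 1 by log2 values of -0.69 for PSIP1, -0.51 for AFF4, -0.42 for AFF1, -0.30 for KMT2A and -0.18 for MLLT10. DOT1L, although long, was at -0.06, and the most AT-rich member, MLLT3, was at 0.37. Along the labels, 0 members passed in the blocked fit with this offset.

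**Figure D4:**
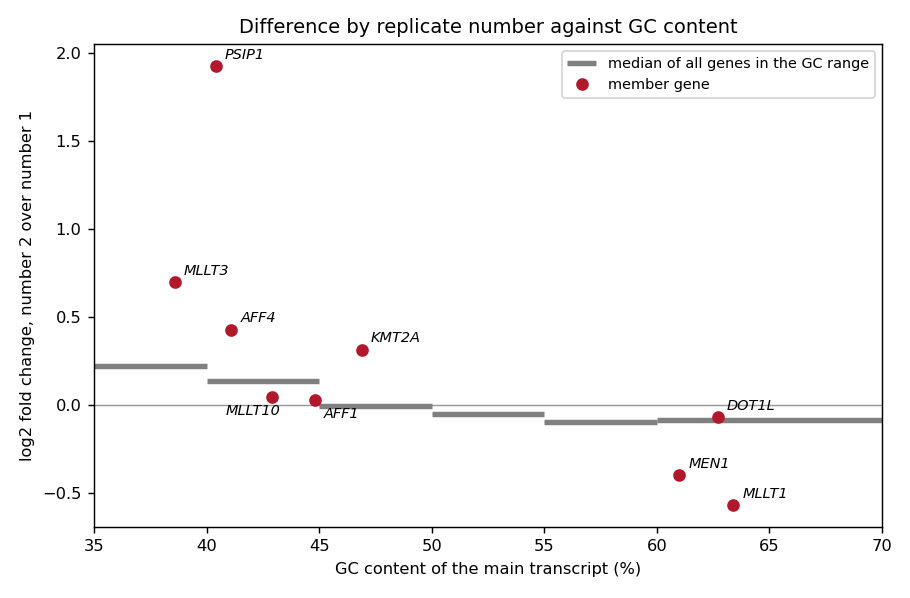
Log2 fold change of libraries numbered 2 over those numbered 1 (vertical axis) against the GC percentage of the main transcript (horizontal axis); points are the 9 genes and grey lines the median of all genes in each GC range, of which the outer ranges reach beyond the axis. PSIP1 at 1.93 lies far above the median of 0.14 for its range, while DOT1L at -0.07 lies close to that of its range.

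The MLLT3 counts came mostly from transcripts that lack the 5′ part of the gene. MLLT3 (ENSG00000171843.15) lies on the minus strand at chr9:20341665-20622543 (GRCh38). Its longest transcript, ENST00000380338, has 11 exons, with 1412 bases in exons 1 to 5 and 5360 bases from exon 6 on. Transcripts ENST00000380321 (chr9:20346406-20382469) and ENST00000380323 (chr9:20345077-20382487) begin within intron 5 and join ENST00000380338 at its exon 6. Exon 6 (chr9:20365669-20365744) is shown because it is the first exon that these transcripts share, in capitals after the last 60 bases of exon 5.
MLLT3 exon 6: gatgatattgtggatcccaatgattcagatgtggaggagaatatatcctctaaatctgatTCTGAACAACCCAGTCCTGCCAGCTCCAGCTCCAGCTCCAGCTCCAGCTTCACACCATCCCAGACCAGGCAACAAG
Transcripts with any of exons 1 to 5 held 10 of 83 and 9 of 91 estimated counts in ALKBH5 rescue 1 and 2. They held 7 of 46 and 16 of 102 in shALKBH5 1 and 2, and 1 of 40 and 3 of 73 in shCtrl 1 and 2. In every library the transcripts without these exons dominated, at 84.3% to 97.5% of the counts. The groups were seen to separate after the values were known: the share with exons 1 to 5 was higher in every library labelled shALKBH5 (15.2% and 15.7%) and ALKBH5 rescue (12% and 9.89%) than in those labelled shCtrl (2.5% and 4.11%). This rests on 1 to 16 counts per library, and among gene levels such separation from shCtrl held for 17.5% of genes in shALKBH5 and 10.1% in ALKBH5 rescue. Its 95% Wilson intervals overlap, from 9.89% to 24.0% in shALKBH5 2 and from 1.41% to 11.4% in shCtrl 2, and ENST00000380338 had too few counts to be tested. These intervals cover counting error only, since no molecular identifiers are mentioned. Reads of the 3′ exons from the KMT2A fusion and from the other allele cannot be told apart, and the fusion's part in this share was not tested.

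Counts of KMT2A (ENSG00000118058.21, plus strand, chr11:118436464-118526832) were assigned mostly to annotated full-length transcripts. ENST00000534358, with 36 exons, held 1770 of 2163 counts in ALKBH5 rescue 2 and 1328 of 1535 in shCtrl 1, and ENST00000389506 had the next highest counts, at 141 to 501. Transcripts that span exon 9 held 94.5% to 97.5% of KMT2A counts over the 6 libraries. The transcript ENST00000531904 (chr11:118436510-118484314) ends with exon 9 of ENST00000534358 (chr11:118484183-118484314), which is given in capitals before the first 60 bases of exon 10 to show where it stops. ENST00000531904 was chosen after its values were seen.
KMT2A exon 9: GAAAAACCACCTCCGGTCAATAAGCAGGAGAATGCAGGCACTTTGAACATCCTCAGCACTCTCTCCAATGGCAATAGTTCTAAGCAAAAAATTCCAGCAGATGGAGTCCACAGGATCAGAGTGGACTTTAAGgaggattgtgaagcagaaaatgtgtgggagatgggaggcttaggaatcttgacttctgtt
ENST00000531904 had 31, 22 and 41 estimated counts in ALKBH5 rescue 2, shALKBH5 2 and shCtrl 2, against 5, 4 and 4 in ALKBH5 rescue 1, shALKBH5 1 and shCtrl 1. The libraries numbered 2 are all above those numbered 1. Its log2 fold change was 2.83 (SE 0.45) with an edgeR adjusted p of 0.0909 over 58909 transcripts, and relative to the other KMT2A transcripts it was 1.70 (adjusted p = 0.259). Neither passed, and the gene-level test of transcript shares gave an adjusted p of 0.327 for KMT2A. The breakpoint of the THP1 fusion is not given in the tables, and whether fusion reads were assigned to this transcript was not tested.

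AFF1 was the one member whose transcript shares differed by replicate number. AFF1 (ENSG00000172493.20, plus strand, chr4:86935002-87141054) has transcripts from an upstream start, chiefly ENST00000395146 (from 86935002), and from starts farther downstream, ENST00000307808 (from 87006988) and ENST00000544085 (from 87007396). The first coding exons, shown in capitals before the common next exon in lower case, tell the upstream start from the downstream starts. ENST00000544085 was chosen after its values were seen, because it carried the difference in shares. ENST00000395146 has 38 coding bases before the common exon (chr4:86948534-86948571) and ENST00000544085 has 17 (chr4:87007408-87007424). ENST00000307808 begins its coding sequence with the same 17 bases, so they do not mark ENST00000544085 alone.
AFF1 upstream coding start: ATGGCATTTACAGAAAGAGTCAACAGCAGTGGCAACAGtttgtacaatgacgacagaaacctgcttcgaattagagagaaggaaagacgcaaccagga
AFF1 downstream coding start: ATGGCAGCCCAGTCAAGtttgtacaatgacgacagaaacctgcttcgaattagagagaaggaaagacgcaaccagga
ENST00000544085 had 0 of 1432 estimated counts in ALKBH5 rescue 2, which by counting error alone would allow a share of up to 0.209%. How reads divide between ENST00000544085 and ENST00000307808 is uncertain, so an estimate of 0 does not bound the share. ENST00000544085 had 2 of 1664 in shALKBH5 2 and 21 of 1518 in shCtrl 2, against 21 of 1587, 125 of 1652 and 76 of 1241 in ALKBH5 rescue 1, shALKBH5 1 and shCtrl 1. Within each group the library numbered 2 is the lower, although shCtrl 2 and ALKBH5 rescue 1 have the same count. Relative to the other AFF1 transcripts its log2 fold change was -2.91 in number 2 (edgeR adjusted p = 0.0307), and AFF1 as a gene passed at an adjusted p of 0.0367. In the same measure ENST00000307808, with the same coding start, was at -0.19 and did not pass. Shares of transcripts passed for 4.31% of 10584 genes and for 1 of the 9 members. All transcripts from the downstream starts together held 14.5%, 12.8% and 18.9% of AFF1 counts in ALKBH5 rescue 2, shALKBH5 2 and shCtrl 2, against 22.1%, 31.7% and 17.4% in the libraries numbered 1 of the same groups, and these overlap. The AFF1 call was lost, with 0 members passing, when transcripts had to reach 1 CPM in 2 or more libraries, and without any 1 of the 4 libraries labelled ALKBH5 rescue or shALKBH5.

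PSIP1 (ENSG00000164985.14, minus strand, chr9:15464066-15511019) is read into a long form of LEDGF, which holds the domain that binds menin and KMT2A, and a short form that lacks it. The forms share 977 coding bases. The long transcript ENST00000380733 codes over 1590 bases in all and the short transcript ENST00000380716 over 999, and the point where they part is shown with shared bases in lower case and bases of each form's own in capitals. Those of ENST00000380716 lie at chr9:15471210-15471231, and those shown of ENST00000380733 lie within chr9:15469333-15469993. Sequences are GENCODE 29 transcript sequences on GRCh38, on the transcript's strand.
PSIP1 long form: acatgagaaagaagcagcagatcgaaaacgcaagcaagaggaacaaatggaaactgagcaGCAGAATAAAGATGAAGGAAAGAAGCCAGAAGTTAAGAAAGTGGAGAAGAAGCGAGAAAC
PSIP1 short form: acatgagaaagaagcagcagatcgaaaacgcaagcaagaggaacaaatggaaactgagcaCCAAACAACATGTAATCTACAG
Long coding transcripts held 1483, 1779 and 820 estimated counts in ALKBH5 rescue 2, shALKBH5 2 and shCtrl 2, against 304, 407 and 301 in ALKBH5 rescue 1, shALKBH5 1 and shCtrl 1. Short coding transcripts held 411, 313 and 310 in ALKBH5 rescue 2, shALKBH5 2 and shCtrl 2, against 72, 61 and 62 in the libraries numbered 1. Both forms are therefore higher in every library numbered 2, where long forms made up 75.1% ± 8.24 of PSIP1 counts, against 74.5% ± 6.22 in number 1 (SD, n = 3 each). The test of transcript shares did not pass for PSIP1 (adjusted p = 1). How reads divide among nearly identical transcripts of 1 form is uncertain, so sums over forms are given.

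**Figure D5:**
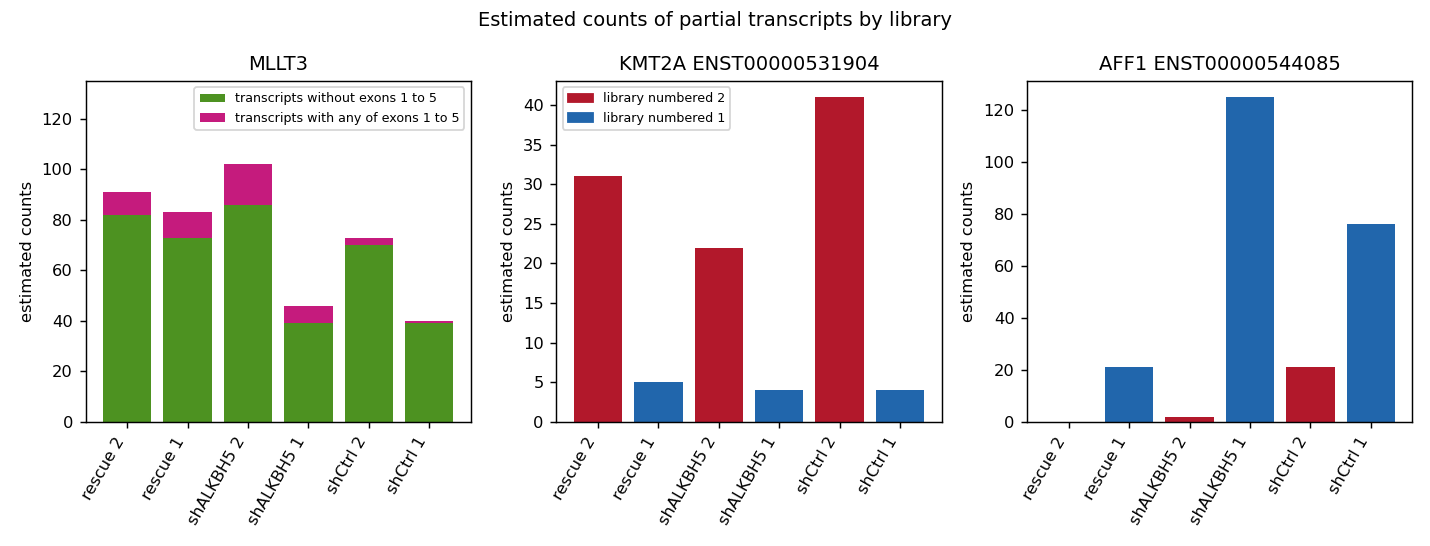
Estimated counts (vertical axes, from 0) per library for MLLT3 transcripts with and without exons 1 to 5, for the KMT2A transcript ENST00000531904 and the AFF1 transcript ENST00000544085; libraries are named by group and replicate number. MLLT3 counts come mostly from transcripts without exons 1 to 5, ENST00000531904 is at 22 to 41 in number 2 and 4 to 5 in number 1, and ENST00000544085 is highest in shALKBH5 1 at 125.

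Of the 100 transcripts listed for the members, 49 had enough counts to test. None passed in any of the 4 comparisons by edgeR (adjusted p over 58909 transcripts), where the background was 0% along the labels and 0.0017% between the numbers. At an unadjusted p under 0.05 there were 0 member transcripts for shALKBH5 against shCtrl, 0 for ALKBH5 rescue against shALKBH5, 1 for ALKBH5 rescue against shCtrl and 10 between the numbers. Between the numbers DESeq2 called 4 of them (of AFF1, MLLT1, MLLT10 and PSIP1), with 8.53% of all transcripts called, and limma-voom 2 (of MLLT1 and PSIP1), with 5.98% called. The smallest p belonged to ENST00000380733, at 2.22 on the log2 scale (SE 0.19, edgeR adjusted p = 0.064). Along the labels 0 members passed in transcript shares, at backgrounds of 0.142% for shALKBH5 against shCtrl, 0.265% for ALKBH5 rescue against shALKBH5 and 0.312% for ALKBH5 rescue against shCtrl. With the block it was again 0, at backgrounds of 0.397%, 0.51% and 0.359% in the same order.

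Reads from the opposite strand could add to some members, since the sources used here do not say whether counting used strand. SNAPC3, which overlaps PSIP1, had 353 to 561 counts, AP3D1 and PLEKHJ1, which overlap DOT1L, had 5654 to 9954 and 822 to 1559, and SKIDA1, which overlaps MLLT10, had 184 to 284. AC093827.5, which overlaps AFF1, had 0 to 5 counts. KMT2A is overlapped by AP001267.5 on the same strand and has the antisense gene AP001267.3, and no counts were available for either. The processed pseudogene MLLT10P1 had 0 to 4 counts. The letters GGAC, a common context of N6-methyladenosine, were counted on the transcript strand of the main transcripts. They occurred 6.88 times per 1000 bases in MEN1 and 2.36 times in PSIP1, the extremes among the members, against a median of 3.85 over 13640 coding genes. A match of these letters is not a measured site.

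The wider machinery was read in 9 lists, of which some include members and some share genes, and 0 genes of any list passed along the group labels. Between the numbers 45.4% of all genes passed, 22.8% higher and 22.6% lower, and each list count below is to be read against those shares. Of the 14 genes of menin and the core subunits of KMT2 complexes, 3 were higher and 6 lower in number 2, with a median log2 fold change of -0.16, against 0.01 over all genes. Lower with MEN1 were CXXC1 (-0.41, SE 0.09), which recruits SETD1 complexes to CpG islands, SETD1A (-0.39, SE 0.08), a methyltransferase of lysine 4 of histone H3, and DPY30 (-0.56, SE 0.13), a core subunit. TAF1, a subunit of the general transcription factor TFIID, was higher (0.38, SE 0.10). Among 13 genes of a list of KMT2 and SET methyltransferases 4 were higher and 2 lower. The higher ones include NSD3 (0.64, SE 0.09), NSD2 (0.45, SE 0.08) and KMT2C (0.56, SE 0.10). The 2 lower genes, SETD1A among them, also stand in the list before and are counted in both. Of 9 DOT1L complex genes 1 was higher and 2 lower. Of these NPM1, the nucleolar chaperone mutated in other myeloid leukaemias, was at 627 ± 19.5 CPM in number 2 against 911 ± 42.2 CPM in number 1 (SD, n = 3 each).

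Of the 19 genes of the super elongation complex and the kinase P-TEFb, 4 were higher and 6 lower in number 2 (median -0.15), beside the 45.4% of all genes called. The elongation factor ELL2 was lower (-0.78, SE 0.11), as were AFF3 (-0.49, SE 0.10), a paralogue of AFF1 and AFF4, and EAF1 (-0.35, SE 0.10), which binds ELL proteins. AFF4 was higher beside AFF3 in the same comparison. Of 6 PAF1 complex genes 2 were higher, CTR9 (0.29, SE 0.08) and CDC73 (0.31, SE 0.10), and 0 lower. Among 27 tested of 28 recurrent fusion partners of KMT2A, 8 were higher and 7 lower. Besides members these include EPS15 (0.60, SE 0.09), FOXO3 (0.48, SE 0.10) and USP2 (-0.75, SE 0.15).

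Of 23 tested of 26 genes known as targets of KMT2A fusions, 5 were higher and 4 lower in number 2, with a median of 0.11, beside the 45.4% of all genes called. The transcription factor genes SATB1 (0.75, SE 0.08) and ZEB2 (0.67, SE 0.08) and the cell-cycle inhibitor CDKN2C (0.61, SE 0.09) were higher, and RUNX2 was lower (-0.78, SE 0.10). Of 15 Polycomb genes, whose products oppose KMT2A complexes in development, 2 were higher and 4 lower, among them PHC1 (0.77, SE 0.14), CBX7 (0.73, SE 0.15), BMI1 (-0.45, SE 0.11) and PHC2 (-0.35, SE 0.09). Of 8 genes for processing and stability of KMT2A, 2 were higher and 3 lower. IRAK4 (1.01, SE 0.13) and IRAK1 (0.64, SE 0.08), signalling kinases, were higher, and SKP2 (-0.55, SE 0.08), a ubiquitin ligase subunit, was lower. Every gene given here as higher or lower had an edgeR adjusted p under the threshold of 0.05 over all genes.

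The members did not move as 1 block across the 6 libraries. Pearson's r of log2 CPM was 0.986 between MEN1 and MLLT1, -0.977 between PSIP1 and MLLT1, 0.964 between KMT2A and AFF4 and 0.58 between KMT2A and MLLT3. These are descriptions over 6 libraries that share the replicate-number difference. The coding genes most like KMT2A in this measure were FRS2 (r = 0.997), NIN (r = 0.996) and ZBTB38 (r = 0.993), and 6.88% of 10589 genes had an r above 0.9. For MLLT3 they were ENY2 (r = 0.994), RAP1GDS1 (r = 0.984) and CASP4 (r = 0.983), with 2.79% above 0.9.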

How the data were processed

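Oligo-dT-selected RNA of the 6 THP1 libraries was quantified with kallisto 0.43.1 after CASAVA on hg38, per the submitters' processing notes; the sources used here give neither options nor strand setting. The deposited tables hold, per transcript, an estimated count, a TPM value, and transcript and effective lengths in bases, all made by the authors. Of 179973 transcripts, 163714 (91%) matched GENCODE 29 (GRCh38); the rest, 3.13% to 3.32% of estimated counts, were left out. Estimated counts were summed per gene and rounded to whole numbers. CPM are counts scaled by TMM factors. The main test was edgeR 4.0.16 (R 4.3.3), quasi-likelihood, with genes kept by filterByExpr, all 6 libraries, 1 coefficient per group and 3 residual degrees of freedom; the comparison of replicate numbers had group and number as terms and 2 residual degrees of freedom. P-values were Benjamini-Hochberg adjusted over all genes or transcripts, with a threshold of 0.05. Transcript shares were tested with diffSpliceDGE and Simes' method. SE is the log2 fold change over the square root of F. Within-number differences and correlations use log2 CPM with a prior count of 2. DESeq2 1.42.0, limma-voom 3.58.1, other scalings and filters and leaving out each library were alternatives.

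Same-numbered libraries deviated together from their group means (r = 0.685 for shALKBH5 with shCtrl, 0.597 for ALKBH5 rescue with shCtrl, 0.727 for ALKBH5 rescue with shALKBH5), so a replicate block was fitted as well. The common biological coefficient of variation fell to 10.6% in the blocked fit, against 27.7% in the unblocked one. Scripts were tested on simulated counts. Genes named from the pathway lists were, per list, up to 4 non-members with the smallest p between the numbers and at least 5 CPM. 1 gene that this rule names is not reported here. The members and lists were chosen with earlier results of these data known. Depth was 14534386 to 24857373 estimated counts per library; counting intervals are 95% Wilson, and a count of 0 was read as allowing 3 counts.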

Additional observations from a re-analysis of the deposited data

Results flagged for a closer look

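PSIP1 and AFF4 moved in opposite directions along the labels in the libraries of the 2 replicate numbers. For ALKBH5 rescue against shCtrl the PSIP1 difference was -0.76 on the log2 scale between the libraries numbered 1 and 0.83 between those numbered 2. The AFF4 difference was -0.42 between the libraries numbered 1 and 0.32 between those numbered 2. Each side rests on 1 library per group, and the difference between the numbers was not tested. The library labelled ALKBH5 rescue 1 was at -0.69 for PSIP1 and -0.51 for AFF4 against the other libraries numbered 1. In this measure genes at 40% to 45% GC, the range of both, had a median of -0.08. By length the median was 0.03 at 2000 to 4000 bases, the range of PSIP1, and -0.21 over 8000 bases, the range of AFF4. Whether GC content or length had a part in the opposite directions was not tested. With the replicate block and an offset for GC content and length, ALKBH5 rescue against shCtrl was at 0.057 for PSIP1 and -0.052 for AFF4, and neither passed.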

How the results depend on the processing

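Every group fit of genes but the blocked ones with 1 ALKBH5 rescue library left out called 0 of 9 members. Log2 values turned direction in the fits below, PSIP1 with limma-voom against 0.48 as reported. With RLE size factors the values were MEN1 at 0.0026, DOT1L at 0.0091 and MLLT10 at 0.00060 for ALKBH5 rescue against shALKBH5, then MLLT1 at 0.0083 for ALKBH5 rescue against shCtrl. Without a filter on low counts the values were MLLT10 at 0.0079 for shALKBH5 against shCtrl, then DOT1L at 0.0070 for ALKBH5 rescue against shALKBH5, then MLLT1 at 0.034 and MLLT10 at 0.0077 for ALKBH5 rescue against shCtrl. With DESeq2 the values were MEN1 at 0.0028, DOT1L at 0.0091 and MLLT10 at 0.00020 for ALKBH5 rescue against shALKBH5, then MLLT1 at 0.0082 for ALKBH5 rescue against shCtrl. With limma-voom the values were PSIP1 at -0.044 and AFF4 at -0.068 for ALKBH5 rescue against shCtrl. With the replicate block the values were AFF4 at -0.032 for ALKBH5 rescue against shCtrl. With the replicate block in DESeq2 the values were DOT1L at 0.0097 for ALKBH5 rescue against shALKBH5, then AFF4 at -0.027 for ALKBH5 rescue against shCtrl. With protein-coding transcripts alone the values were MEN1 at 0.013 and MLLT10 at 0.020 for shALKBH5 against shCtrl, then DOT1L at 0.011 for ALKBH5 rescue against shALKBH5, then MLLT1 at 0.031 and MLLT10 at 0.019 for ALKBH5 rescue against shCtrl. With the GC and length offset the values were MLLT10 at -0.12 and AFF1 at -0.10 between the numbers. With the replicate block and that offset the values were MEN1 at 0.0068 and MLLT1 at 0.011 for shALKBH5 against shCtrl, then DOT1L at 0.016 and MLLT10 at 0.029 for ALKBH5 rescue against shALKBH5, then MLLT1 at 0.022 and AFF4 at -0.052 for ALKBH5 rescue against shCtrl. The replicate block with all libraries changed no call of a member. Member transcripts called between the numbers were 4 with DESeq2 (8.53% of all transcripts called), 2 with limma-voom (5.98%), 1 without a filter (0.277%) and 3 without a group term (9.43%), against 0 as reported. DESeq2 called 1 (of PSIP1) for shALKBH5 against shCtrl (0.187% of all) and 1 for ALKBH5 rescue against shCtrl (0.175%), and the cause was not tested. Both calls were of ENST00000397519, at 48 counts in shALKBH5 1, 397 in ALKBH5 rescue 2 and 0 in the other libraries. Each called group thus had 1 library at 0. ENST00000380716, also of the short form, was at 0 in shALKBH5 1 and ALKBH5 rescue 2 and at 46 to 280 elsewhere. The AFF1 share call became 0 with a filter of 1 CPM in 2 libraries, and 0 to 1 when a library was left out. MLLT3 was not called between the numbers with DESeq2 (adjusted p = 0.129) or coding transcripts alone (adjusted p = 0.143), nor AFF4 with coding transcripts alone (adjusted p = 0.0539).

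When each library was left out, with or without the block, the count of members called was 0 to 1 for shALKBH5 against shCtrl, 0 to 3 for ALKBH5 rescue against shALKBH5, 0 to 1 for ALKBH5 rescue against shCtrl and 3 to 6 between the numbers. Log2 values then ranged, for shALKBH5 against shCtrl, as KMT2A -0.047 to 0.18, MEN1 -0.26 to 0.11, PSIP1 -0.78 to 1.23, DOT1L -0.16 to -0.036, MLLT1 -0.35 to 0.21, MLLT3 -0.38 to 0.66, MLLT10 -0.14 to 0.11, AFF1 -0.041 to 0.24 and AFF4 0.032 to 0.44. Log2 values then ranged, for ALKBH5 rescue against shALKBH5, as KMT2A -0.45 to 0.091, MEN1 -0.28 to 0.21, PSIP1 -1.97 to 1.26, DOT1L -0.068 to 0.063, MLLT1 -0.32 to 0.35, MLLT3 -0.23 to 0.81, MLLT10 -0.17 to 0.13, AFF1 -0.47 to 0.021 and AFF4 -0.74 to 0.17. Log2 values then ranged, for ALKBH5 rescue against shCtrl, as KMT2A -0.39 to 0.16, MEN1 -0.35 to 0.15, PSIP1 -1.42 to 1.28, DOT1L -0.14 to -0.062, MLLT1 -0.37 to 0.29, MLLT3 0.074 to 0.72, MLLT10 -0.19 to 0.12, AFF1 -0.38 to 0.11 and AFF4 -0.51 to 0.40. Log2 values then ranged, between the numbers, as KMT2A 0.22 to 0.38, MEN1 -0.43 to -0.34, PSIP1 1.57 to 2.35, DOT1L -0.085 to -0.022, MLLT1 -0.59 to -0.50, MLLT3 0.54 to 0.83, MLLT10 -0.045 to 0.14, AFF1 -0.12 to 0.13 and AFF4 0.21 to 0.58. A group left with 1 library is assumed to vary like the others. With 2 libraries per group and a difference between the numbers of this size, differences along the labels under the intervals given were not detectable.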
